A study of Mus musculus with 16 samples.

Results

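The effect of the folic acid content of the diet was described in mouse embryo heads without a functional Ift88 gene. Libraries were chosen by their labels: 4 of homozygous Ift88-null embryos on an enriched diet (10 ppm folic acid) and 4 of such embryos on a moderate diet (2 ppm), 8 of the 16 libraries of the series. The other 8 libraries came from wild type embryos, 4 on each diet, and were used for the same diet comparison in the other genotype. Both diets had been given for 3 generations, and the embryos were at embryonic day 8.5. The piece of head sampled lay between the first branchial arch and a point above the otic vesicle, which holds neural tube, head mesenchyme, neural crest, surface ectoderm, vessels and blood. All 8 mutants lack Ift88 in every cell, and no group has a diet free of folic acid. Litters are not named, so a p-value here covers only the spread among the libraries compared. In such mixed tissue fewer cells of a type and less RNA per cell cannot be told apart.

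Ift88 is a subunit of the particle that carries cargo along cilia, and cells without it build no normal cilium and answer Hedgehog signals poorly. Folic acid enters cells through folate receptors and carriers, is reduced there and then carries one-carbon units for thymidylate, purines and the remethylation of homocysteine. Supplementation is known for lowering the frequency of neural tube defects, and the series asks about its effect on cilia. The design here asks whether the higher dose alters the head transcriptome once cilia are lost.

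The enriched diet mutants had 19249433 to 44267434 counts on genes, and the moderate diet mutants 25080849 to 36442710. The head markers Otx2, Six3, En1, Twist1 and 9 others of a list of 14 passed the filter on low counts, and the summed level of the list lay between 684.7 and 854.7 CPM in the 8 mutants. CPM is the count of a gene scaled to the total of its library, as used throughout. Xist and Y-linked counts contradicted the labelled sex in moderate diet mutants 1 and 2 and in moderate diet wild type 2. Whether other labels of these libraries, such as the diet, also err cannot be read from the counts. With these 3 libraries left out, 0 genes passed for diet in mutants, and 258 were higher and 245 lower at an unadjusted p under 0.05. Moderate diet mutant 3 stood apart from the other moderate diet mutants in several of the results that follow, and enriched diet mutants 3 and 4 each held genes that no other mutant held at such a level.

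Ift88, the targeted gene, was measured at 2.99, 8.61, 2.86 and 5.25 CPM in enriched diet mutants 1 to 4 and at 3.35, 6.44, 2.01 and 3.44 CPM in moderate diet mutants 1 to 4. The mutants of the 2 diets overlapped, and all 8 lay below the 8 wild type libraries. Of these, moderate diet wild type 2 held 9.30 CPM, near the highest mutant, and the other 7 held 17.9 to 20.9 CPM. Shh and Foxa2 were at 34.1 and 17.8 CPM in that library, within the range of the other wild types. The log2 fold change of the enriched over the moderate diet was 0.24 ± 0.37 (SE).

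No gene passed the test for diet in the mutant heads. Of 14514 genes tested, 0 passed an adjusted p of 0.05 in either direction (0% higher, 0% lower; edgeR quasi-likelihood test, Benjamini-Hochberg), and the smallest adjusted p was 0.442. The count was 3 with DESeq2 (2 lower, among them Pcbp2, and Prl8a2 higher) and 0 with limma-voom. At an unadjusted p under 0.05, 590 genes were higher on the enriched diet (4.07%) and 975 lower (6.72%), which is 1565 genes or 10.8% in all. In wild type heads the same comparison gave 0 genes past the threshold. At an unadjusted p under 0.05, 169 were higher (1.16%) and 185 lower (1.27%), or 354 genes (2.44%). With the mutant libraries fitted alone, 284 of 14108 genes were higher and 245 lower at that p (smallest edgeR adjusted p 0.858). Wild type libraries fitted alone gave 100 higher and 92 lower of 14081. The counts at an unadjusted p thus depended on which libraries were fitted together. The difference between the diet effects of the 2 genotypes was also passed by 0 genes, with 412 higher (2.84%) and 989 lower (6.81%) at an unadjusted p under 0.05, so no diet effect was shown to be particular to mutants.

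In the fit over all 16 libraries, the limits on the size of a diet effect were narrow for most genes. The 95% interval of the fold change in mutants stayed within 1.5-fold in either direction for 10421 genes (71.8%). It stayed within 2-fold for 12809 (88.3%) and within 4-fold for 14336 (98.8%). That fit shares the estimate of a gene's spread among all groups. The median SD of log2 CPM was 0.19 and 0.17 in enriched and moderate diet mutants. In enriched and moderate diet wild types it was 0.16 and 0.11, so the intervals in mutants may be too narrow. The median log2 fold change over all genes was -0.01 and its median size 0.12, with 49.0% of genes fitted higher on the enriched diet. All 4 enriched diet mutants lay above all 4 moderate diet mutants in 212 genes (1.46%) and below them in 253 (1.74%), 3.20% together. In wild type heads 213 genes (1.47%) and 153 genes (1.05%) separated in the same way. A principal component analysis of the 8 mutants did not separate the diets: on the first component, with 37.4% of the variance, enriched diet mutants 1 to 4 lay at -2.45, -13.3, 13.9 and -26.5 and moderate diet mutants 1 to 4 at 2.13, 9.86, 21.4 and -4.99. The 500 genes used included sex-linked ones. Xist had the largest positive weight on that component, and Ddx3y, Uty, Kdm5d and Eif2s3y the most negative.

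The cholesterol synthesis list covers enzymes from acetyl-CoA to cholesterol with genes of uptake and regulation. These genes are switched on together by SREBP-2 when sterols in the endoplasmic reticulum run low, and cholesterol itself is attached to Hedgehog ligands. All 24 genes of the list were fitted lower on the enriched diet, and 0 passed the threshold. At an unadjusted p under 0.05, 17 were lower and 0 higher, against 6.72% and 4.07% of all genes. The median log2 fold change was -0.27, against -0.01 over all genes, and 0.01 for the same list in wild type heads. Every one of the 24 intervals stayed within 2-fold.

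Dhcr7, the reductase that acts on the sterol ring, lies on chromosome 7 from 143823145 to 143848410 of mm10. It held 82.7, 76.0, 78.4 and 84.2 CPM in enriched diet mutants 1 to 4 and 110, 89.2, 99.0 and 89.7 CPM in moderate diet mutants 1 to 4. The groups did not overlap, and its log2 fold change was -0.30 ± 0.08 (SE; edgeR adjusted p = 0.442). The difference from the wild type diet effect was -0.35 ± 0.12 (edgeR adjusted p = 0.502). Nsdhl, a dehydrogenase that removes methyl groups from the sterol ring, held 43.1, 33.5, 41.3 and 42.9 CPM against 56.2, 46.4, 64.9 and 50.1 CPM. Idi1, the isomerase of the isoprene units, held 11.8, 9.82, 11.1 and 12.5 CPM against 16.4, 12.7, 16.4 and 13.0 CPM. For both genes the enriched diet mutants were lower without overlap, but moderate diet mutant 2 lay close to them. The log2 fold changes were -0.45 ± 0.13 for Nsdhl and -0.40 ± 0.14 for Idi1. Hsd17b7, another enzyme of sterol demethylation, was at -0.28 ± 0.09 with overlapping groups.

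**Figure D1:**
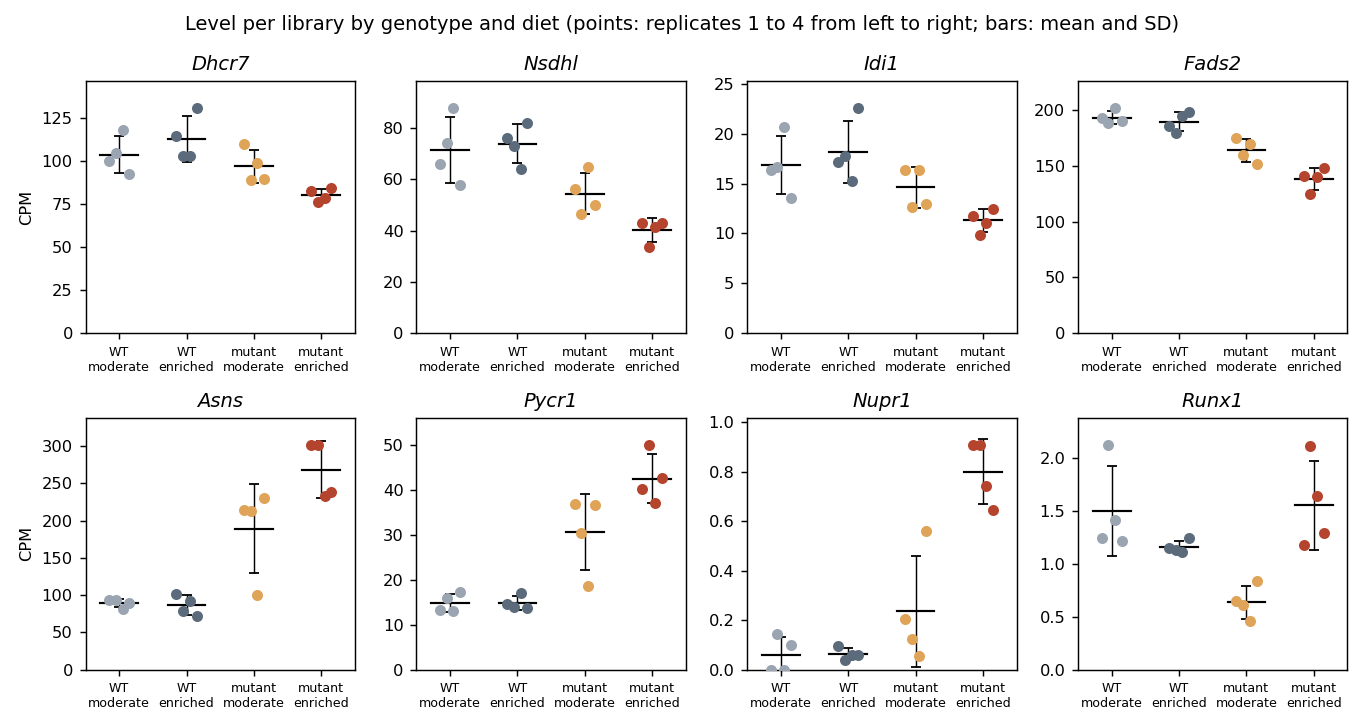
Level in CPM (vertical axes, from 0) of 8 genes in each of the 16 libraries, by genotype and diet; points are replicates 1 to 4 from left to right and bars are the mean and SD of 4 libraries. Dhcr7, Nsdhl, Idi1 and Fads2 (a fatty acid desaturase) are lower and Asns, Pycr1, Nupr1 and Runx1 higher in all 4 enriched diet mutants than in the 4 moderate diet mutants, while the wild type groups of these genes overlap between diets.

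A score for each library was taken as the average of a list's log2 CPM values, each gene centred over the 16 libraries. For the cholesterol list it was -0.22, -0.43, -0.38 and -0.14 in enriched diet mutants 1 to 4. In moderate diet mutants 1 to 4 it was 0.07, -0.23, 0.05 and -0.13. Moderate diet mutant 2 lay inside the enriched diet range, so the list as a whole overlapped between the diets. Wild type libraries lay between -0.0090 and 0.41. Of the 24 genes, 11 had an unadjusted p under 0.05 for the difference between the genotypes' diet effects, all lower in mutants, against 6.81% of all genes. Over the 22 settings tried, the one reported included, the median of the list ran from -0.31 to -0.18, 23 or 24 genes were fitted lower, and 3 to 17 had an unadjusted p under 0.05. That count was 5 with the mutant libraries fitted alone. It was 6 without enriched diet mutant 2 or without moderate diet mutant 1. It was 7 without enriched diet mutant 3, 8 without moderate diet mutant 3 and 3 without both of these. With DESeq2, 1 gene of the list passed the adjusted threshold, and in the other settings 0 did.

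Sterol genes are known to share sequences in their promoters, and some of these are described here. A pair of motifs was searched on both strands in the 250 bases before the start sites of RefSeq (GRCm38.p6), where 17 of the 24 genes had an entry. TCACNCCAC, a form of the sterol regulatory element, was found in 1 of the 17 genes, Hmgcs1, and in 1.22% of all genes with an entry. CCAAT, the site of the factor NF-Y, was found in 16 of the 17 and in 37.5% of all genes. As sterol genes are known to share such sites, a share above that of all genes is no result of these data. With CCAAT in 16 of the 17, members with and without it could not be compared. Whether the motifs bear on the diet differences was not tested, and a match is a description of letters and not of binding. The following runs of 30 bases lie 5′ to 3′ on the strand of the gene, with the match in capitals (ATTGG is CCAAT read on the other strand). They are from Hmgcs1 (chr13:119690204-119690233, + strand), Nsdhl (chrX:72918400-72918429, + strand), Idi1 (chr13:8885549-8885578, + strand, in its annotated UTR) and Dhcr7 (chr7:143830117-143830146, + strand, before an internal start site and in annotated UTR).
Hmgcs1: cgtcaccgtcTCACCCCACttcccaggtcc
Nsdhl: agcccgcttcccATTGGtttgggaacgaag
Idi1: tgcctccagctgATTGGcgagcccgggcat
Dhcr7: tcactgccttcaCCAATcacaggacgcagc

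The opposite lean was seen in the list of genes induced by amino acid shortage and endoplasmic reticulum stress, many of them targets of the transcription factor ATF4. Of 25 genes tested, 23 were fitted higher on the enriched diet and 2 lower, with 8 higher and 0 lower at an unadjusted p under 0.05 (49.0% of all genes were fitted higher, 4.07% at that p). With the mutant libraries fitted alone the 8 became 3, and without enriched diet mutant 1 they became 4. Without enriched diet mutant 3 or moderate diet mutant 2 they became 12. None passed the threshold. The median log2 fold change was 0.31 in mutants and -0.07 in wild type heads. The scores of the list lay between -0.72 and -0.43 in the 8 wild type heads, and those of 7 of the 8 mutants above 0.5, with moderate diet mutant 3 among the wild type values.

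Asns, the asparagine synthetase on chromosome 6 from 7675169 to 7693254, held 301, 302, 233 and 238 CPM in enriched diet mutants 1 to 4 and 215, 213, 100 and 230 CPM in moderate diet mutants 1 to 4. The enriched diet mutants were all higher, by a small margin over moderate diet mutant 4. Its log2 fold change was 0.49 ± 0.19 (edgeR adjusted p = 0.442). Pycr1, which makes proline, held 40.2, 50.0, 37.1 and 42.6 CPM against 36.9, 30.4, 18.7 and 36.6 CPM, and its log2 fold change was 0.43 ± 0.17. Its groups touched without overlapping. Nupr1, a small stress-induced chromatin protein, was scarce, with 40, 21, 14 and 19 counts in the enriched diet mutants and 6, 3, 2 and 14 in the moderate diet mutants. That is 0.906, 0.909, 0.742 and 0.644 CPM against 0.205, 0.123, 0.0573 and 0.560 CPM, a log2 fold change of 1.86 ± 0.51. All enriched diet mutants were higher, and moderate diet mutant 4 was nearest to them.

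Other members overlapped between the diets. Atf5, a transcription factor of the same response, was at 0.51 ± 0.15 on the log2 scale, Ddit3, which promotes cell death under prolonged stress, at 0.71 ± 0.26, Slc7a3, a cationic amino acid carrier, at 0.80 ± 0.33 and Cebpg at 0.25 ± 0.09. Chac1, which degrades glutathione, held 29.3 to 47.3 CPM on the enriched diet, and 39.4, 54.3, 0.917 and 37.8 CPM in moderate diet mutants 1 to 4. Trib3, a pseudokinase induced by the response, held 23.8 to 50.3 CPM against 36.0, 40.9, 2.52 and 37.0 CPM. For both, moderate diet mutant 3 alone was low, at the wild type level of 0.804 to 1.96 CPM for Chac1 and 1.52 to 5.42 CPM for Trib3. The score of the list was 0.93, 1.02, 0.54 and 0.82 in enriched diet mutants 1 to 4 and 0.62, 0.65, -0.56 and 0.67 in moderate diet mutants 1 to 4. Without moderate diet mutant 3 the median of the list was 0.11, with 21 genes fitted higher and 8 at an unadjusted p under 0.05.

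**Figure D2:**
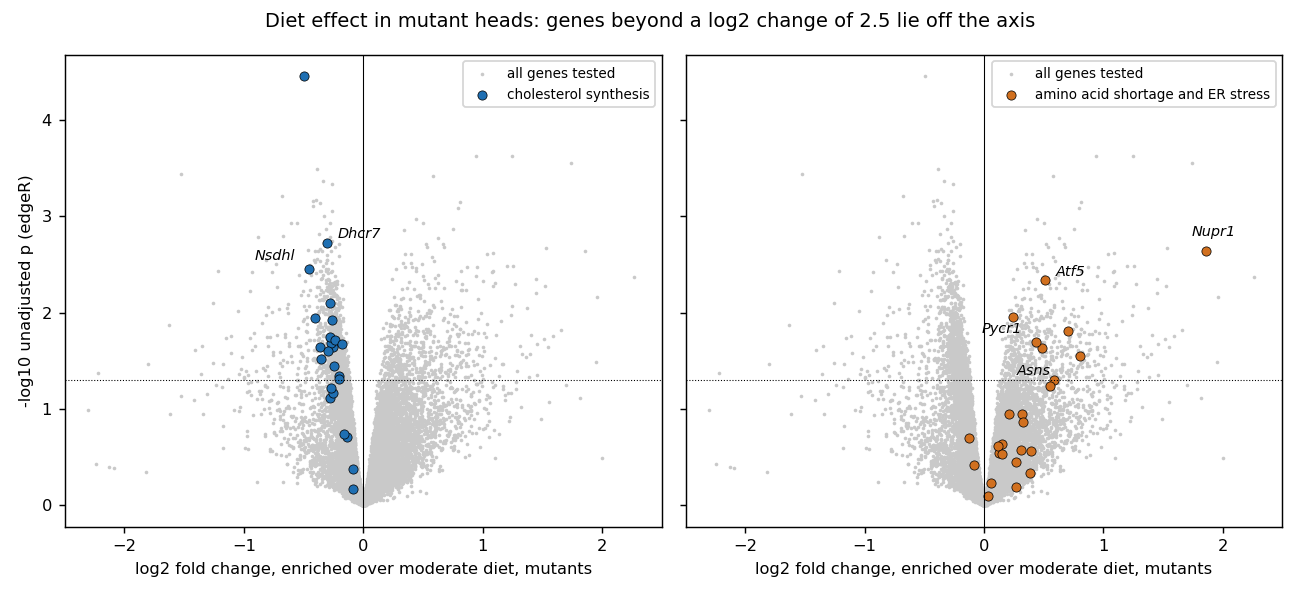
Log2 fold change of the enriched over the moderate diet in mutants (horizontal axis) against -log10 of the unadjusted p (vertical axis) for all genes tested in grey, with the 24 cholesterol synthesis genes in blue on the left and the 25 amino acid and endoplasmic reticulum stress genes in orange on the right; the dotted line marks an unadjusted p of 0.05. All 24 sterol genes lie left of 0, 23 of the 25 stress genes lie right of 0, and no gene passed the adjusted threshold.

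The amino acid response element TGATGNAA, the letters bound by ATF4 with its partners, was searched on both strands in the same RefSeq windows. It was found in 8 of the 22 members with an entry (Asns, Nupr1, Pycr1, Chac1, Pck2, Slc7a11, Vldlr and Herpud1) and in 3.91% of all genes with an entry. Many members are known targets of ATF4, so a share above that of all genes is no result of these data. The median log2 fold change of these 8 was 0.41, and that of the 14 without a match 0.23. Slc7a11, which holds a match, was at -0.12. Whether the element bears on the diet differences was not tested, and a match describes letters and not binding. The 3 members whose mutant libraries separated by diet all held a match, shown in capitals within 30 bases of the strand of the gene (TTGCATCA is the element read on the other strand). They lie at chr6:7693214-7693243 (Asns, - strand, in annotated UTR), chr7:126625562-126625591 (Nupr1, - strand, in annotated UTR) and chr11:120643833-120643862 (Pycr1, - strand, before the gene).
Asns: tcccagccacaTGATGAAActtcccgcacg
Nupr1: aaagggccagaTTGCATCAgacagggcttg
Pycr1: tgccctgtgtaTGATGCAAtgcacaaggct

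Of genes induced in low oxygen, 22 of 24 were fitted higher, but 1 had an unadjusted p under 0.05, a share near the 4.07% of all genes. The list had a median log2 fold change of 0.34, against 0.20 in wild type heads. Car9, a carbonic anhydrase induced by HIF-1, held 3.83, 3.89, 2.07 and 4.40 CPM in enriched diet mutants 1 to 4 and 2.25, 2.01, 0.630 and 2.44 CPM in moderate diet mutants 1 to 4, a log2 fold change of 0.91 ± 0.34. Its groups overlapped at enriched diet mutant 3. Vegfa, the vessel growth factor, was at 0.52 ± 0.25, with 145, 145, 88.2 and 271 CPM against 117, 104, 56.2 and 136 CPM. Adm, a vasodilator peptide, held 48.0, 39.2, 24.2 and 38.2 CPM against 32.0, 32.9, 4.84 and 34.4 CPM, and its log2 fold change was 0.47 ± 0.38. Without moderate diet mutant 3 the median of the hypoxia list was 0.12 and 18 genes were fitted higher. Ddit4 (0.32 ± 0.35), Bhlhe40 (0.53 ± 0.46) and Mxi1 (0.31 ± 0.15), other genes of the list, also had their lowest value in that library. Glycolysis genes had a median of 0.20 in wild type heads, with 6 of 23 higher and 0 lower at an unadjusted p under 0.05 (1.16% and 1.27% of all genes). For the difference between genotypes 5 were lower and 1 higher at that p, against 6.81% and 2.84% of all genes. In mutants the median of the glycolysis list was 0.04, with 14 of 23 fitted higher. Without moderate diet mutant 3 it was -0.03 with 7 higher, and without moderate diet mutant 2 it was 0.15 with 20 higher.

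**Figure D3:**
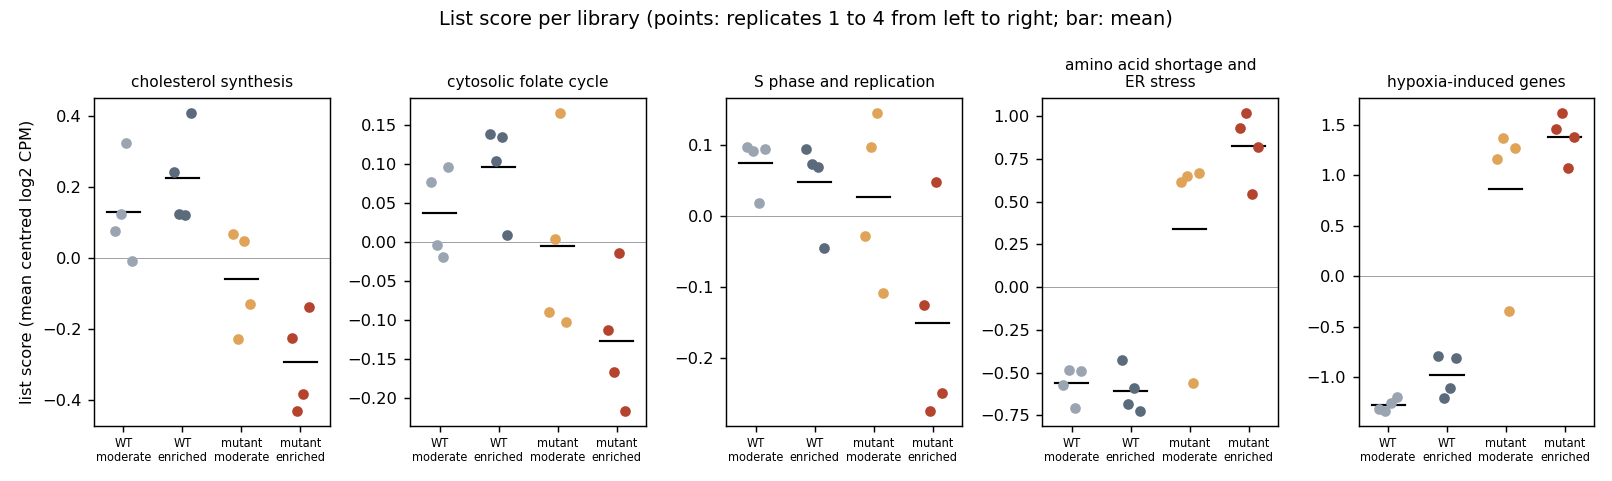
Score of 5 gene lists (vertical axes, mean centred log2 CPM) in each of the 16 libraries, by genotype and diet, with replicates 1 to 4 from left to right and the group mean as a bar. Moderate diet mutant 3 is low in the amino acid and hypoxia lists, at -0.56 and -0.34, where the other mutants lie at 0.54 to 1.02 and 1.07 to 1.62, and the mutant groups of all 5 lists overlap between the diets.

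Genes that handle folate differed little. Of the receptors, carriers, retention enzyme and exporters, 9 were tested, 3 were fitted higher and 6 lower, 0 had an unadjusted p under 0.05 and all 9 intervals stayed within 2-fold. Folr1, the folate receptor of the neural folds, was at 1.86, 1.95, 2.55 and 1.69 CPM in enriched diet mutants 1 to 4 and at 2.12, 2.62, 3.32 and 1.88 CPM in moderate diet mutants 1 to 4, a log2 fold change of -0.28 ± 0.28. The groups overlapped, and all 8 lay below the wild type range of 3.42 to 8.53 CPM. Slc19a1, the reduced folate carrier, held 53.2, 50.1, 49.2 and 40.4 CPM against 49.4, 57.8, 50.7 and 46.0 CPM, at -0.07 ± 0.10 with a 95% interval of -0.28 to 0.14. Slc46a1, the proton-coupled carrier, was at -0.25 ± 0.13, Slc25a32, the mitochondrial carrier, at -0.12 ± 0.12 and Fpgs, which adds the glutamate tail that keeps folate in cells, at -0.06 ± 0.08. Ggh, which removes that tail, was at 0.14 ± 0.14. The exporters Abcc1 (0.15 ± 0.11), Abcc5 (0.30 ± 0.16) and Abcg2 (-0.13 ± 0.10) went both ways.

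Of the 10 enzymes of the cytosolic folate cycle, 8 were fitted lower and 2 higher, with 3 lower at an unadjusted p under 0.05 and a median of -0.13 (0.07 in wild type heads), where 6.72% of all genes were lower at that p. Without moderate diet mutant 3 the median was -0.04, with 6 fitted lower and 1 at an unadjusted p under 0.05. Without moderate diet mutant 2 it was -0.08 and with the mutant libraries fitted alone -0.10, each also with 1. Among the 3 were Tyms and Atic, which make thymidylate and close the purine ring. Tyms held 85.7, 71.4, 90.7 and 74.0 CPM in enriched diet mutants 1 to 4 and 90.3, 110, 116 and 82.5 CPM in moderate diet mutants 1 to 4, at -0.27 ± 0.10. Atic held 315, 259, 346 and 251 CPM against 325, 425, 420 and 315 CPM, at -0.29 ± 0.11. Both overlapped between the diets, and all 10 intervals of the list stayed within 2-fold. Enriched diet mutant 3 was the highest enriched diet library for each.

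Mthfd1 (-0.05 ± 0.07) and Shmt1 (-0.09 ± 0.08) interconvert one-carbon forms, and Gart (-0.19 ± 0.12) uses them for purines. Mthfsd (-0.03 ± 0.10) and Mthfs (0.19 ± 0.18) were also tested. The scarcer Aldh1l1 (-0.17 ± 0.37) had the widest interval of the list, from -0.96 to 0.62. Of 13 methionine cycle and transsulfuration genes, 6 were fitted higher and 7 lower, with 0 at an unadjusted p under 0.05. Of 11 mitochondrial one-carbon and glycine cleavage genes, 5 were fitted higher and 6 lower, with 1 higher and 3 lower at an unadjusted p under 0.05 (4.07% and 6.72% of all genes). The 3 became 0 without enriched diet mutant 1 and without moderate diet mutant 1, 2 or 3, and 1 without enriched diet mutant 2. They also became 0 with the mutant libraries fitted alone. Aldh1l2, which oxidises the formyl group of folate to carbon dioxide, was the 1 higher. It held 24.1, 33.0, 17.9 and 32.0 CPM against 18.2, 9.67, 3.24 and 18.8 CPM, a log2 fold change of 0.98 ± 0.34, with overlap at enriched diet mutant 3. The glycine cleavage genes Gldc (-0.29 ± 0.11), Gcsh (-0.26 ± 0.12) and Amt (-0.20 ± 0.08) were fitted lower with overlapping groups. Loss of Gldc or Amt is known to cause neural tube defects.

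S phase and replication genes, which include Tyms, had 20 of 24 fitted lower, 11 at an unadjusted p under 0.05 (6.72% of all genes), and a median of -0.16 (0.04 in wild type heads). The helicase subunit Mcm5 was at -0.28 ± 0.09, the clamp Pcna at -0.26 ± 0.09 and the flap nuclease Fen1 at -0.27 ± 0.10. The score of that list was -0.13, -0.28, 0.05 and -0.25 in enriched diet mutants 1 to 4 and -0.03, 0.10, 0.15 and -0.11 in moderate diet mutants 1 to 4, so the groups overlapped. With the 3 libraries of contradicted sex left out, 0 of the 24 genes had an unadjusted p under 0.05. With the mutant libraries fitted alone 2 did, and leaving out single libraries gave 2 (moderate diet mutant 3) to 16 (moderate diet mutant 4). Purine synthesis genes had 11 of 13 lower (4 at an unadjusted p under 0.05, median -0.17). Leaving out single libraries gave 0 (moderate diet mutant 2) to 7 (enriched diet mutant 3 or moderate diet mutant 4) at that p and medians of -0.11 to -0.23. With the mutant libraries fitted alone the count was 1. Oxidative phosphorylation genes were all 22 fitted lower in mutants with a median of -0.15, with 1 at an unadjusted p under 0.05, and had a median of 0.13 in wild type heads. The mutant median was -0.08 without moderate diet mutant 2 and -0.09 without enriched diet mutant 4, with 20 fitted lower in each case, and with the 3 libraries of contradicted sex left out it was -0.03 with 15 fitted lower. Among p53 targets, 16 of 20 were fitted higher, with a median of 0.10. Cdkn1a, the cell cycle inhibitor, was at 0.59 ± 0.20 and Eda2r, a death receptor, at 0.44 ± 0.16.

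**Figure D4:**
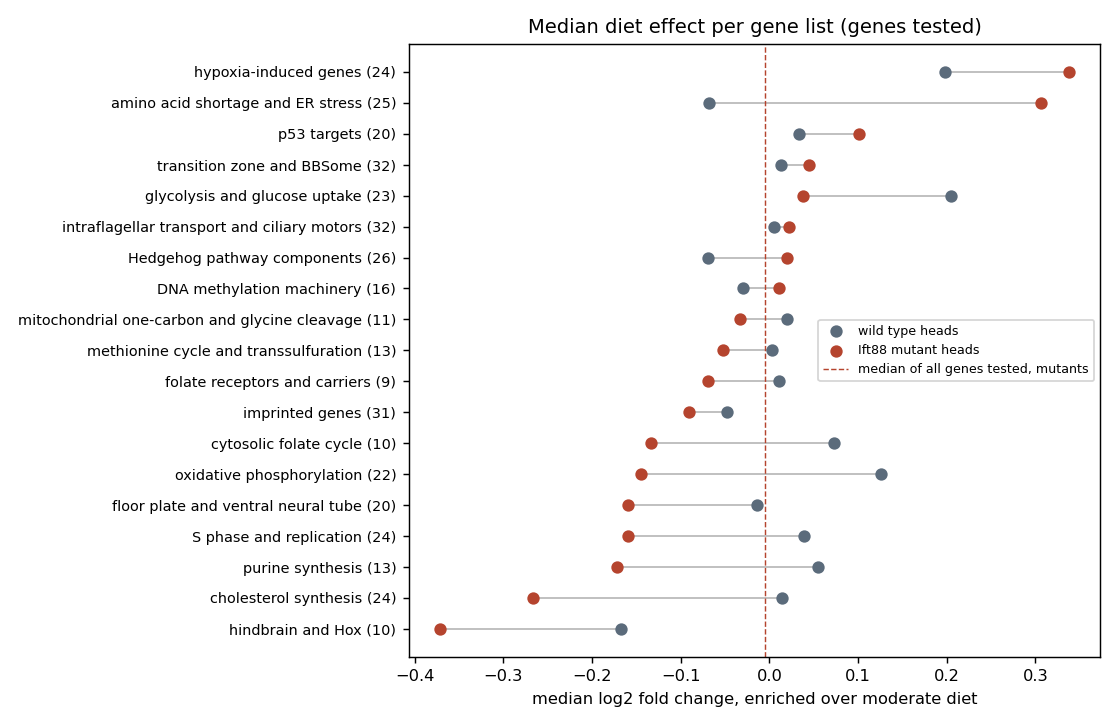
Median log2 fold change of the enriched over the moderate diet (horizontal axis) for 19 gene lists, with the number of genes tested in brackets, in mutant heads (red) and wild type heads (grey); the dashed line is the median of all genes in mutants. The cholesterol list lies at -0.27 in mutants and 0.01 in wild type heads, and the amino acid stress list at 0.31 and -0.07. The lowest list, hindbrain and Hox genes, rests on moderate diet mutant 3.

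Genes of DNA methylation and of cilia were close to the all-gene median. Of 16 genes of the DNA methylation machinery, 10 were fitted higher and 6 lower, with a median of 0.01. Uhrf2 was at 0.19 ± 0.07 and Trim28, a corepressor that protects imprints, at -0.18 ± 0.07. Trim28 held 1240, 1100, 1250 and 1140 CPM against 1280, 1430, 1460 and 1260 CPM, and its groups touched without overlapping. Of 31 imprinted genes, 19 were fitted lower, with a median of -0.09 and 3 at an unadjusted p under 0.05, the paternally expressed Peg13 (-0.31 ± 0.08), Peg12 (-0.25 ± 0.08) and Mest (-0.20 ± 0.07). The share over all genes was 6.72%. Without moderate diet mutant 3 the median was 0.02, with 17 fitted higher and 14 lower. Peg13 held 37.7, 38.2, 42.6 and 41.1 CPM against 46.9, 51.6, 57.4 and 45.7 CPM, without overlap.

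Of 32 genes for intraflagellar transport and its motors, 19 were fitted higher and 13 lower, with 3 higher at an unadjusted p under 0.05 (4.07% of all genes) and a median of 0.02. Without enriched diet mutant 4 or moderate diet mutant 3 the 3 became 1. The 3 were the motor Kif17 (0.93 ± 0.34, under 1 CPM in every mutant), Ttc21b (0.19 ± 0.08) and Ift172 (0.24 ± 0.11), of which Kif17 alone did not overlap between the diets. In the transition zone and the BBSome, 19 of 32 were fitted higher with a median of 0.04, and Tctn1, a transition zone protein that also acts on Hedgehog signalling, was at 0.33 ± 0.11. Tctn1 held 13.4, 15.5, 13.4 and 18.4 CPM against 12.1, 10.9, 10.7 and 12.5 CPM, and its groups did not overlap.

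Hedgehog components had a median of 0.02. Of 26 tested, 2 were higher and 5 lower at an unadjusted p under 0.05, against 4.07% and 6.72% of all genes. The groups separated upward in 1 and downward in 4, against 1.46% and 1.74% of all genes. Without moderate diet mutant 3 the 5 lower became 3, and the median turned to -0.05 without enriched diet mutant 4 and to -0.0039 and -0.0012 without moderate diet mutants 1 and 2. Smo, the transducer that enters the cilium, held 312, 295, 325 and 292 CPM in enriched diet mutants 1 to 4 and 365, 424, 384 and 330 CPM in moderate diet mutants 1 to 4, at -0.28 ± 0.07 (edgeR adjusted p = 0.442). Sufu, the inhibitor that holds Gli proteins, held 107, 107, 118 and 112 CPM against 130, 126, 135 and 123 CPM, at -0.20 ± 0.06. In both genes the enriched diet mutants were lower without overlap. The wild type diet effects were -0.02 ± 0.08 for Smo and -0.03 ± 0.06 for Sufu.

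Ptch1, a receptor and a target, was at -0.10 ± 0.13. Gli1, the target most used as a readout, was at 0.07 ± 0.25, with 8.83, 8.05, 8.43 and 23.0 CPM against 10.4, 9.59, 9.57 and 12.2 CPM, so enriched diet mutant 4 stood above all other mutants and the other 3 enriched diet mutants lay below the 4 moderate diet mutants. Shh, the ligand, held 1.34, 1.30, 0.742 and 1.02 CPM against 1.40, 0.902, 2.18 and 1.72 CPM, at -0.49 ± 0.22, while wild type heads held 30.5 to 36.5 CPM. Foxa2, the floor plate factor, was at 0.03 ± 0.25 with 0.307 to 0.589 CPM in the 8 mutants and 13.7 to 18.7 CPM in wild type heads. Of 20 floor plate and ventral genes, 9 were fitted higher and 11 lower, with 1 higher and 5 lower at an unadjusted p under 0.05 (4.07% and 6.72% of all genes). The 5 became 1 without moderate diet mutant 2, 2 without enriched diet mutant 2 and 3 without moderate diet mutant 1 or 4. Nkx2-9 had 0 to 3 counts in every mutant library, and no fold is given. Nkx2-2, a factor of ventral progenitors, was at -0.81 ± 0.35 with 0.0865 to 0.424 CPM against 0.342 to 0.615 CPM. Spon1, a secreted floor plate protein, was at -0.39 ± 0.14.

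Outside these lists, the genes with the smallest p in each direction and no overlap between the groups included regulators, scarce transcripts and metabolic enzymes. Runx1, the factor that starts blood cell formation and also acts in neural crest and sensory lineages, held 1.18, 2.12, 1.64 and 1.29 CPM in enriched diet mutants 1 to 4 and 0.649, 0.615, 0.458 and 0.840 CPM in moderate diet mutants 1 to 4. Its log2 fold change was 1.24 ± 0.26 (edgeR adjusted p = 0.442), and the difference from the wild type diet effect was 1.66 ± 0.36. The moderate diet mutants were the low group, since wild type heads held 1.11 to 2.13 CPM. Optn, an autophagy receptor, held 3.53, 3.98, 2.76 and 3.12 CPM against 2.12, 1.19, 1.55 and 1.80 CPM, at 0.94 ± 0.20. Here the enriched diet mutants were the high group, above the wild type range of 1.26 to 2.29 CPM. The other 8 named on the higher side were Adgrb3 (0.58), Ctla2a (0.81), Ppfia4 (0.80), Mcam (0.44), Cep72 (0.50), Osbpl1a (0.35), Vill (0.63) and Pkn3 (0.67). Cep72 is a centrosome protein and Mcam an adhesion molecule of vessels and neural crest.

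On the lower side stood Emc8, a subunit of the complex that inserts membrane proteins, at -0.39 ± 0.09, followed by Gtf3c6 (-0.34), Pcbp2 (-0.26), Klhl4 (-0.68), Chp1 (-0.36), Fads2 (-0.26), Dach2 (-0.55), Plekha8 (-0.28) and Lrtm1 (-0.61). Fads2, a fatty acid desaturase that is also an SREBP target, held 141, 125, 140 and 148 CPM against 175, 160, 170 and 152 CPM. Pcbp2, an RNA-binding protein, held 463, 478, 483 and 454 CPM against 564, 603, 559 and 542 CPM, the tightest groups of those named. Wild type heads held 488 to 560 CPM. None of these genes passed the threshold in the fit reported.

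Markers of other cells are given beside these genes. Summed endothelial markers were 614.9, 574.1, 598.8 and 581.5 CPM in enriched diet mutants 1 to 4 and 704.7, 628.3, 619.3 and 654.9 CPM in moderate diet mutants 1 to 4. In this sum the enriched diet mutants were lower without overlap, by a small margin, within the wild type range of 529.6 to 653 CPM. The score of the list overlapped, at -0.07 to 0.07 on the enriched diet and -0.0009 to 0.19 on the moderate diet. The mutant libraries separated downward in 1 marker and upward in 1, against 1.74% and 1.46% of all genes. Of the 18 markers, 15 were fitted lower, with 5 lower and 1 higher at an unadjusted p under 0.05 (6.72% and 4.07% of all genes). For the difference between genotypes 8 were lower and 0 higher at that p, against 6.81% and 2.84% of all genes. The counts of this list were not taken again with libraries left out. Tek, the angiopoietin receptor, was at -0.44 ± 0.13, Plvap, a protein of vessel fenestrae, at -0.25 ± 0.09 and Icam2, an adhesion molecule, at -0.28 ± 0.10. Tek and Plvap overlapped between the diets, and Icam2 did not. The difference in Icam2 from the wild type diet effect was -0.56 ± 0.14, and that in Slc25a29, a mitochondrial amino acid carrier, -0.84 ± 0.21, both among the 5 smallest p of that comparison (adjusted p = 0.502).

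Csf1r, the macrophage receptor, was scarce, with 61, 26, 25 and 12 counts in enriched diet mutants and 8, 1, 8 and 2 in moderate diet mutants. That is 1.38, 1.13, 1.33 and 0.407 CPM against 0.273, 0.0410, 0.229 and 0.0800 CPM, a log2 fold change of 2.69 ± 0.66. The enriched diet mutants were higher without overlap, and wild type heads held 0.281 to 2.46 CPM. Of 13 macrophage markers only 4 had enough counts to be tested, and the summed list ran from 4.14 to 6.89 CPM on the enriched diet, from 1.44 to 4.20 CPM on the moderate diet and from 4.42 to 12.3 CPM in wild type heads. Tbx6, a factor of trunk mesoderm, held 0.906, 0.952, 0.955 and 0.745 CPM against 0.307, 0.287, 0.201 and 0.200 CPM, at 1.74 ± 0.38. The summed trunk mesoderm markers overlapped, at 6.36 to 8.65 and 6.85 to 8.51 CPM. Erythroid markers also overlapped, at 992 to 3916 and 1615 to 3727 CPM. The part of these cell types in the diet differences was not tested.

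Among genes with a mean of at least 1 CPM in the mutants, the 5 largest fitted differences in each direction each rested on 1 library. Predicted and sex-linked genes were passed over in this ranking. Prl8a2, a decidual hormone of the prolactin family, held 0.204, 0.519, 189 and 3.46 CPM in enriched diet mutants 1 to 4 and 0 to 0.240 CPM in moderate diet mutants, a fitted log2 fold change of 9.87 ± 1.87. Procr (12.6 CPM, the others of its group at 0.498 to 0.915 CPM) and Htra1 (46.5 CPM, the others at 2.33 to 2.77 CPM), a protein C receptor and a secreted protease, were high in the same library, enriched diet mutant 3. Summed decidua and trophoblast markers were 280.6 CPM there and 78.3 to 108.1 CPM in the other 7 mutants, and 7 of the 21 markers, among them Tpbpa and Psg17, were at 0 in all 8. Afp, the fetal serum protein of yolk sac and liver, was at 57.7 CPM in enriched diet mutant 4 and at 0.0433 to 9.26 CPM in the other mutants. Slc47a1, a drug and cation exporter, was at 7.39 CPM in that library and at 0.0453 to 0.212 CPM in the other mutants. In wild type heads it held 9.68, 12.3, 0.117 and 6.77 CPM in enriched diet replicates 1 to 4 and 0.0968 to 0.284 CPM on the moderate diet. Its wild type diet effect was 5.09 ± 1.39 (edgeR adjusted p = 0.967), so high values on the enriched diet were not limited to that mutant. Summed yolk sac markers were 144.6 CPM in enriched diet mutant 4 and 8.87 to 43.7 CPM elsewhere among the mutants.

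On the lower side Hand1 (14.1 CPM), Smoc2 (13.9), Postn (118), Hoxb2 (4.47) and Tbx20 (5.39) stood high in moderate diet mutant 3. In the other mutants Hand1, a factor of heart and trophoblast, held 0.068 to 0.902 CPM, and Postn, a matrix protein of cushions and mesenchyme, 8.40 to 15.9 CPM. All 10 hindbrain and Hox genes tested were fitted lower (median -0.37), and without moderate diet mutant 3 the median was -0.03. Hoxb2, a member, held 0.169 to 1.95 CPM and Tbx20, a heart factor, 0.205 to 0.822 CPM. The sign of all 5 turned without that library. Summed markers of heart muscle were 11.3 CPM in that library, 6.03 to 8.32 CPM in the other moderate diet mutants and 5.46 to 11.3 CPM in the enriched diet mutants, and Myl2 was at 0 in all 8.

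**Figure D5:**
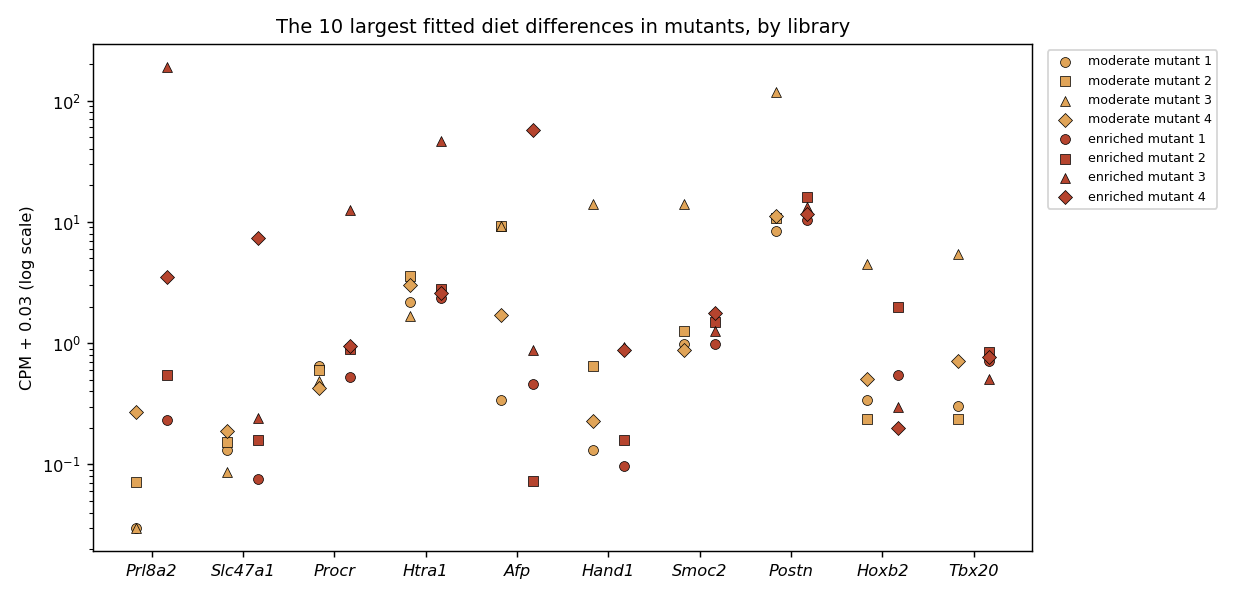
Level of the 5 genes in each direction with the largest fitted diet differences among those with a mean of at least 1 CPM, in each of the 8 mutant libraries (vertical axis, CPM plus 0.03 on a log scale; symbols are replicates, colours are diets). Prl8a2, Procr and Htra1 are high in enriched diet mutant 3, Slc47a1 and Afp in enriched diet mutant 4, and the other 5 in moderate diet mutant 3.

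Syt7, a vesicle calcium sensor, and Ttc9c, a protein with peptide repeats, were lower on the enriched diet in both genotypes at an unadjusted p under 0.05. In mutants Syt7 held 22.4, 28.8, 30.7 and 22.5 CPM against 33.1, 37.3, 30.8 and 35.2 CPM, at -0.37 ± 0.14, and in wild type heads it was at -0.70 ± 0.14. Ttc9c was at -0.30 ± 0.13 and -0.52 ± 0.14. The mutant groups of Syt7 met at 30.7 and 30.8 CPM, and those of Ttc9c overlapped. For neither gene was the difference between genotypes past the threshold (adjusted p = 0.525 and 0.619).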

How the data were processed

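RNA was sequenced from 16 embryo heads, 4 per genotype and diet. The deposited files hold 1 raw, unnormalized count for each of 24421 gene symbols. Per the submitters' processing notes, the authors used FastQC 0.11.5, TopHat2 2.1.1, SAMtools 1.8, HTSeq 0.9.1 and DESeq2 1.22.2 with mm10. The counting mode, strand option and annotation are not given in the sources used here. Per the labels' protocols, libraries were made with the TruSeq RNA kit (version 2), which is known to keep no strand, so reads of overlapping, antisense and near-identical genes cannot be told apart. Counting summary lines were left out.

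A gene was tested where 4 or more libraries had 10 or more counts (14514 genes, 59.4%), with edgeR 4.0.16 (R 4.3.3, limma 3.58.1). Counts were scaled by trimmed means of M values. A quasi-likelihood model over all 16 libraries had a coefficient per group and the labelled sex. P-values were adjusted over all genes by Benjamini-Hochberg, and the standard error is the size of the log2 fold change over the square root of F. CPM uses the scaled library total. List scores use a prior count of 2. The model was tested on simulated data. Positions are from GENCODE vM21.

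Named were Ift88 and landmarks of its loss, the 10 smallest p per direction without overlap and the 5 largest fitted differences per direction (mean of at least 1 CPM, predicted and sex-linked genes passed over), all tested folate carriers and cytosolic folate enzymes, the 3 smallest p of other lists (for lists the report describes) and of the genotype difference, and genes that leaned with diet in the series. Slc7a3, Gcsh, Ddit3, Pcna, Hsd17b7 and other list members beyond the 3 smallest p were chosen after their values were seen. The comparison, members, lists and motifs were chosen with earlier results of these data known. Some genes that this rule names are not reported here, and counts over lists include them. Lists were given no test. Alternatives were median-of-ratios scaling, DESeq2 1.42.0, limma-voom, other count filters, other sex terms, the replicate number as a block, an adjusted p of 0.1, mutants alone, and leaving out libraries. Leaving out moderate diet mutant 3 with enriched diet mutants 3 and 4 was chosen after seeing the data.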

Additional observations from a re-analysis of the deposited data

Results flagged for a closer look

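Among 4 libraries of a group, a value was taken as standing apart where its gap to the nearest other exceeded the 95% critical share of the group's range in Dixon's test. Of 240 groups of 4 looked at (genes and list scores named in the text, in each mutant group), 23 held such a value. Chance gives about 1 in 20, but 11 of the 23 are in the 10 genes named for the largest fitted differences, which were chosen for such differences, and the count was not read against that share. No explanation was tested.

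Moderate diet mutant 3 held 12 of the 23. It was high in Hand1 (14.1 CPM), Smoc2 (13.9), Postn (118), Hoxb2 (4.47) and Tbx20 (5.39). It was low in Adm (4.84 CPM, the others of its group at 32.0 to 34.4), Asns (100, the others at 213 to 230), Trib3 (2.52) and Mxi1 (35.2). It was also low in the scores of the amino acid and endoplasmic reticulum stress list (-0.562), the hypoxia list (-0.341) and the intraflagellar transport list (-0.032).

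Enriched diet mutant 3 stood high in Prl8a2 (189 CPM), Procr (12.6) and Htra1 (46.5) and low in Chac1 (29.3, the others at 45.0 to 47.3). Enriched diet mutant 4 stood high in Slc47a1 (7.39 CPM), Afp (57.7), Gli1 (23.0, the others at 8.05 to 8.83) and the score of the transition zone and BBSome list (0.179, the others at 0.01 to 0.02).

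Moderate diet mutant 2 stood high in Nkx2-2 (0.615 CPM). Moderate diet mutant 4 stood high in Prl8a2 (0.240 CPM) and Uhrf2 (191, the others at 174 to 175).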

How the results depend on the processing

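The count of genes past the threshold for diet in mutants was 0 in 19 of 22 alternatives. It was 3 with DESeq2 (2 lower, among them Pcbp2, and Prl8a2 higher) and 4 without moderate diet mutant 3 and enriched diet mutants 3 and 4 (Lhx2, Mat2a, Nkx2-1 and Sox1, all lower). Leaving out 1 library gave 0 to 1, the 1 being Prl8a2 without enriched diet mutant 1. At an unadjusted p under 0.05, 176 to 1210 genes were higher and 125 to 1826 lower, with 1210 and 1826 without moderate diet mutant 4, 447 and 383 without moderate diet mutant 3, 326 and 359 without moderate diet mutant 1, 618 and 473 without enriched diet mutant 2, and 533 and 607 without enriched diet mutant 1. In wild type heads the count was 1 with DESeq2 (Syt7) and 0 in 18 other alternatives, and for the difference between genotypes it was 0 in all 28. The cause of these differences was not tested. At this depth and n, and with a spread shared among all groups, 2-fold changes were outside the 95% interval for 88.3% of genes. Scarce genes such as Nupr1, Csf1r and Nkx2-2 rest on few counts.

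With the replicate number as a block, 0 genes passed in mutants (smallest adjusted p 0.0637; 773 higher and 1285 lower at an unadjusted p under 0.05). Deviations of same-numbered mutants correlated at -0.01, 0.06, 0.26 and 0.32, so the numbers were not taken as pairs, and 2 of the 4 enriched diet mutants correlated best with their own number.

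Signs turned in 16 genes, none past the threshold. Leaving out 1 library at a time gave Ift88 -0.0355 to 0.64, Afp -3.41 to 3.53, Hand1 -3.38 to 0.84, Smoc2 -1.96 to 0.44, Postn -1.83 to 0.38, Hoxb2 -2.003 to 0.923, Tbx20 -1.77 to 0.83, Slc19a1 -0.12 to 0.0024, Chac1 -0.0791 to 0.68, Aldh1l1 -0.37 to 0.12, Mthfsd -0.0644 to 0.0764, Foxa2 -0.22 to 0.18 and Gli1 -0.31 to 0.25. Without moderate and enriched diet mutant 3, values were Htra1 -0.0095, Hand1 0.47, Smoc2 0.50, Postn 0.39, Hoxb2 1.10, Tbx20 0.95, Aldh1l1 0.24 and Mthfsd 0.0469. Without enriched diet mutant 4 as well, they were Htra1 -0.0870, Afp -3.51, Smoc2 0.27, Postn 0.42, Hoxb2 1.59, Tbx20 0.94, Slc19a1 0.0320, Mthfd1 0.0020, Fpgs 0.0250, Aldh1l1 0.38 and Gli1 -0.35. With mutants alone and without moderate diet mutant 3, they were Ift88 -0.0488, Afp -0.56, Smoc2 0.35, Postn 0.35, Tbx20 0.84, Mthfd1 0.0097, Chac1 -0.0741, Aldh1l1 0.11 and Mthfsd 0.0850. With mutants alone, Afp was -1.12 and Mthfsd 0.0076. With limma-voom, Afp was -1.98 and Foxa2 -0.0026. With the 3 libraries of contradicted sex left out, Slc19a1 was 0.0293, Foxa2 -0.32 and Gli1 -0.13, and with sex read from counts Foxa2 was -0.0050.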

Other observations

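Other lists of head tissue and signalling genes gave smaller or divided values for diet in mutants, and no gene of them passed the threshold. Dorsal neural tube and roof plate genes had 17 of 20 fitted higher on the enriched diet. Their median log2 fold change was 0.14 (-0.14 in wild type heads). At an unadjusted p under 0.05, 3 were higher and 0 lower, against 4.07% and 6.72% of all genes. Forebrain and midbrain genes had 16 of 24 fitted lower and a median of -0.11, with 4 lower at that p (6.72% of all genes). Neural crest genes had a median of 0.07 and genes of neural tube closure one of 0.03, with 12 of 19 and 21 of 32 fitted higher. The medians of the BMP, FGF and Wnt lists were 0.07, 0.03 and 0.01, and that of retinoic acid genes was -0.10.

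Endoplasmic reticulum chaperones, which help fold secreted proteins, did not share the lean of the amino acid stress list. Of 19, 12 were fitted lower, with 3 lower and 0 higher at an unadjusted p under 0.05 (6.72% and 4.07% of all genes). For the difference between genotypes 7 were lower at that level, against 6.81% of all genes. Cytosolic ribosomal proteins had 20 of 25 fitted lower and a median of -0.08 (0.13 in wild type heads). Histone methylation enzymes had 17 of 21 fitted higher and a median of 0.08 (-0.13 in wild type heads). The counts and medians of all lists under this heading were not taken again with libraries left out or with the mutants alone.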
